A study of Mus musculus with 6 samples.

Results

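The elements described here are 1748 regions of open chromatin that lay between genes, carried acetylation of lysine 27 of histone H3 (H3K27ac), and stood more than 1 kb and at most 100 kb from the nearest annotated gene end. They were 1748 of 43652 ATAC-seq peaks on chromosomes 1 to 19, X and Y. Members were chosen by 3 measured or annotated values: an ATAC peak, an overlap of 1 bp or more with an H3K27ac peak, and a midpoint outside all spans of the 21883 protein-coding genes of RefSeq's GRCm38 annotation. Their acetylation and their position between genes are therefore given as description. Each element was assigned to its nearest gene end, and the gene on its other side was recorded as well. The 8830 open intergenic elements at the same distances with no H3K27ac peak are the main comparison.

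The cells were TrkC neurons of the dorsal root ganglion, the lineage that forms the muscle stretch sensors called proprioceptors, from mouse embryos at E11.5. The animals were Runx3-BAC-GFP-CB6 transgenic mice, so every preparation carried GFP driven from a bacterial artificial chromosome (BAC) with Runx3 sequence, and no other genotype or control animal was profiled. Ganglia were dissociated with trypsin and collagenase, and the cells were fixed, sorted for GFP and used at 50000 cells a preparation. The groups were ATAC-seq with 2 samples, ChIP-seq with the H3K27ac antibody ab4729 with 2 samples, and input DNA with 2 samples, which was not used here. Each assay is represented by 1 consensus list of peak positions over its 2 replicates, without signal values, so neither the spread of the replicates nor the depth of a sample is known. Replicates are not stated to come from separate litters or animals. Sequences carried by the BAC and the endogenous Runx3 locus cannot be told apart. All intervals given are 95% Wilson intervals of shares and cover counting error only; elements share genes and H3K27ac peaks and are not independent, so these intervals are too narrow, and no p-value is given.

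Markers of the labelled cells were checked first. Over all protein-coding genes, 60.4% were open and 49.3% acetylated at an annotated end, meaning a peak within 1 kb of it. Of 10 sensory neuron markers, 7 were open and 6 acetylated, close to these shares, and Isl1, Pou4f1, Elavl4, Stmn2 and Tubb3 were among those with both. Prph and Avil had neither, and Ntrk3, which encodes TrkC itself, had none at its ends but 7 ATAC and 4 H3K27ac peaks inside its span. Of 5 markers of glia and neural crest, 3 had an open and 4 an acetylated end. Open ends were found for 3 of 4 motor neuron, 3 of 4 mesenchyme, 2 of 4 endothelial and 1 of 4 blood markers, and acetylated ends for 0, 1 (Twist1), 0 and 1 (Klf1) of these. Open ends therefore do not separate the labelled cells from other cell types here. The part of glial cells in the results below was not tested.

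Distal enhancers are stretches of DNA, often far from the gene they act on, where transcription factors bind, nucleosomes are displaced and transcription of a target promoter is raised. Open chromatin marks where factors can bind. H3K27ac is deposited on flanking nucleosomes by the acetyltransferases p300 and CBP, and separates active enhancers and promoters from those that are accessible without being active. Distance does not identify the target of an enhancer, so the gene names used here are neighbours and not assigned targets.

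Several elements lay at microRNA genes, and the mature sequences are shown to identify the short RNAs whose hairpins lie in or beside an element. Of 1005 miRNA hairpins in RefSeq's table for GRCm38.p6, 31 lay within 5 kb of an element. Of the 354 hairpins outside protein-coding genes, 28 lay within 5 kb of an element and 40 within 5 kb of an unacetylated element. The mature RNAs below are written 5′ to 3′, and capitals mark the seed, bases 2 to 8, which pairs with target messages.
mmu-miR-183-5p: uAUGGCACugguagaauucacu
mmu-miR-96-5p: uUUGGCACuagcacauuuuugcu
mmu-miR-182-5p: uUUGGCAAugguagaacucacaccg
mmu-miR-9-5p: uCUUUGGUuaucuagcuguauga
mmu-miR-132-3p: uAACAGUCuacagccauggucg
mmu-miR-212-3p: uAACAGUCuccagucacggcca
mmu-let-7i-5p: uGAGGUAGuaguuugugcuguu
mmu-miR-22-3p: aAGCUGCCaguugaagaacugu
mmu-miR-17-5p: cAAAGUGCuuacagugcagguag
mmu-miR-20a-5p: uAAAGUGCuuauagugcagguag
The first 3 come from 1 cluster on the minus strand of chromosome 6 (chr6:30165918-30169737) between Nrf1 and Ube2h, and are known for their shared expression in sensory cells. Their seeds are close relatives: miR-96-5p has UUGGCAC, miR-182-5p has UUGGCAA and miR-183-5p has AUGGCAC. miR-132-3p and miR-212-3p share the seed AACAGUC, and both hairpins, Mir132 and Mir212, lay inside a single 592 bp element (chr11:75173217-75173808) between Hic1 and Ovca2. Mirlet7i, which gives let-7i-5p of the let-7 family, lay inside a 954 bp element 5503 bp from Mon2. Mir9-2, 1 of the genes for miR-9, a regulator of neuronal differentiation, lay 742 bp from an element in the Mef2c cluster. miR-17-5p and miR-20a-5p share the seed AAAGUGC, and their hairpins lay 1141 and 1627 bp from the nearest element, in the gap of 3409056 bp between Slitrk5 and Gpc5. Mir760 and Mir1983 also lay inside an element, and Mir713 overlapped one in part.

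Some elements also covered the annotated starts of long noncoding RNA (lncRNA) genes, which are not protein-coding genes and so did not bound the regions. For 7 of them, chosen after their values were seen because they stand beside genes described below, the stretch of the RefSeq start window (250 bases before to 50 after the start, GRCm38.p6) that falls inside the element is printed 5′ to 3′ on the strand of the lncRNA. Capitals mark matches, on either strand, to words bound by known factors: TGTGGT for RUNX, CAGCTG or CAGATG for the E-box, TGANTCA for AP-1, AGGNGGC for the CTCF core and ACAATG for SOX. Mirc35hg, at chr6:30174076-30174375 on the minus strand, is the host transcript of the miR-183 cluster. Gm33070 lies on the plus strand at chr4:110152455-110152718, on the side of Elavl4 that holds its elements. Chaserr, at chr7:73558346-73558645 on the minus strand, lies beside Chd2 and is known to restrain expression of that gene. 8430419K02Rik, at chr11:18877599-18877860 on the minus strand, lies beside Meis1. Gm9530, at chr1:155083215-155083514 on the minus strand, and D730003I15Rik, at chr1:191224330-191224503 on the plus strand, stand beside the early response genes Ier5 and Atf3. Mir22hg, at chr11:75461289-75461588 on the plus strand, is the host of miR-22.
Mirc35hg: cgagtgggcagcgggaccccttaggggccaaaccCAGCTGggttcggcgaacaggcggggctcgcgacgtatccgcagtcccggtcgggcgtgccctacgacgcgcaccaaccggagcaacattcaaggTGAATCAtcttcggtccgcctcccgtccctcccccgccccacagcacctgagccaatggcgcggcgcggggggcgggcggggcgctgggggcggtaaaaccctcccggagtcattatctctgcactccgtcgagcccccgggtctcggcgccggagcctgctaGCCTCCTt
Gm33070: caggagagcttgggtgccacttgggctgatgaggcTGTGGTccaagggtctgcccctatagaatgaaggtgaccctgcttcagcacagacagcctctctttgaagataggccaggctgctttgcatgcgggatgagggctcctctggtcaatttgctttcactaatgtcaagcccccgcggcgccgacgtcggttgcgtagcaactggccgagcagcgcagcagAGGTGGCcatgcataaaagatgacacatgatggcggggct
Chaserr: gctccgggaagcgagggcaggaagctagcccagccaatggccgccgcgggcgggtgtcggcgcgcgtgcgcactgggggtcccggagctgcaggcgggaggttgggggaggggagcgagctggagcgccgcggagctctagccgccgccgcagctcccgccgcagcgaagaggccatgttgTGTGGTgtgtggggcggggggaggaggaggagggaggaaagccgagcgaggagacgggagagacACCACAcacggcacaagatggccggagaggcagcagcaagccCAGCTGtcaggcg
8430419K02Rik: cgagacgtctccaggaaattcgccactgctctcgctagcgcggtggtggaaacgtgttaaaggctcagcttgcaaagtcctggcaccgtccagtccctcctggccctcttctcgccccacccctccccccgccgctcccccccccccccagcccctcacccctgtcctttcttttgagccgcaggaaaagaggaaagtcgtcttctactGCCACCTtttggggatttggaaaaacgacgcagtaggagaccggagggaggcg
Gm9530: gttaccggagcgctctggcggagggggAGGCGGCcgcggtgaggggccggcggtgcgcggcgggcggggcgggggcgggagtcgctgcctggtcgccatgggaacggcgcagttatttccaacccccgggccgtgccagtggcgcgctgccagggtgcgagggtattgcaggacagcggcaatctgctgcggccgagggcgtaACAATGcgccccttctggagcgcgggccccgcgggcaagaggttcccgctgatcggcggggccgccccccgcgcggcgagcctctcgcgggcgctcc
D730003I15Rik: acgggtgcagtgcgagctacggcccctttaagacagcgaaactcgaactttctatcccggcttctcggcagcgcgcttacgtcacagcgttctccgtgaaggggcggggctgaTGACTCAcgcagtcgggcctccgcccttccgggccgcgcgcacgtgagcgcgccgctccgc
Mir22hg: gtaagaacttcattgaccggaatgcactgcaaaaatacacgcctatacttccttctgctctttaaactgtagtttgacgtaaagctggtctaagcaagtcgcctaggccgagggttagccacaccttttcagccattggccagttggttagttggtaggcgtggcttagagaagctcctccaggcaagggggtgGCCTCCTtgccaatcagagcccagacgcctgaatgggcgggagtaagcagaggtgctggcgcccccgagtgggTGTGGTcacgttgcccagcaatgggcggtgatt
Mirc35hg held 1 E-box word, 1 AP-1 word and 1 CTCF core word in 300 bases with a GC content of 70.3%. The Gm33070 stretch held 1 RUNX word and 1 CTCF core word at 58.0% GC, and Chaserr held 2 RUNX words and 1 E-box word at 72.3% GC. D730003I15Rik, beside Atf3, held 1 AP-1 word at 67.2% GC. A match is only the presence of these letters and does not show that a factor was bound.

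Acetylation marked a minority of the open elements between genes. Of 10578 open intergenic elements from 1 kb to 100 kb, 16.5% were acetylated (interval 15.8 to 17.2%), and by chromosome this share ran between 13.2 and 23.0% on the 20 chromosomes with 10 or more elements. The 1748 elements lay in 1495 H3K27ac peaks, which were 7.50% of the 19924 H3K27ac peaks on these chromosomes and covered 2.19 Mb. These peaks had a median width of 1039 bp, against 1036 bp over all H3K27ac peaks. A single element was found in 1268 of them, 2 in 202, 3 in 24 and 4 in 1. Most elements were embedded in the acetylated stretch: 1223 (70.0%) lay wholly inside their H3K27ac peak, and 57.1% had their midpoint in its middle 50%. At the other extreme, 223 (12.8%) had less than 50% of their length covered, and 12 were covered by 10 bp or less.

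The border between elements and unacetylated regions is a threshold on overlap, and few regions stood close to it. An overlap of only 1 to 50 bp made 75 regions members, and 78 unacetylated regions had an H3K27ac peak within 50 bp. The median unacetylated region lay 31004 bp from the nearest H3K27ac peak, and 4.80% of them lay within 1 kb of one. At the lower distance limit, the members beside Igf1r (1001 bp) and Fmc1 (1014 bp) stood just inside, and a peak beside Myt1l (989 bp) just outside. At the upper limit, members beside Septin9 (99938 bp) and Hmga2 (99840 bp) were inside, and peaks beside Kbtbd8 (100177 bp) and Gap43 (100334 bp) outside.

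The elements were wide for open regions between genes. Their ATAC peaks had a median width of 280.5 bp (quartiles 191 and 398, range 92 to 1278), against 152 bp (quartiles 121 and 218, range 87 to 1336) for unacetylated intergenic elements. The median was larger in elements on 20 of the 20 chromosomes with 10 or more of them. The 4086 acetylated open elements inside genes had a median of 282 bp, close to that of the elements between genes, and the 446 acetylated intergenic elements beyond 100 kb had 227 bp. The widest element, of 1278 bp at chr3:122292986-122294263, lay 7715 bp from Dnttip2 and held Mir760. It was followed by elements of 1040 bp beside Nlrp4f, 1014 bp beside Ero1b, 954 bp beside Mon2 and 934 bp beside Chd2, a chromatin remodeller. Further down stood 862 bp beside Smad7, an inhibitor of TGF-beta signalling, 851 bp beside Mef2c, a transcription factor of neurons and muscle, 850 bp beside Adgrl1, and 841 bp each beside Hoxd3 and Bcor, a corepressor. A rule of 1 bp of overlap favours wider peaks by construction. Requiring 50% of the ATAC peak to be covered gave medians of 281 bp for elements and 155 bp for the rest.

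**Figure D1:**
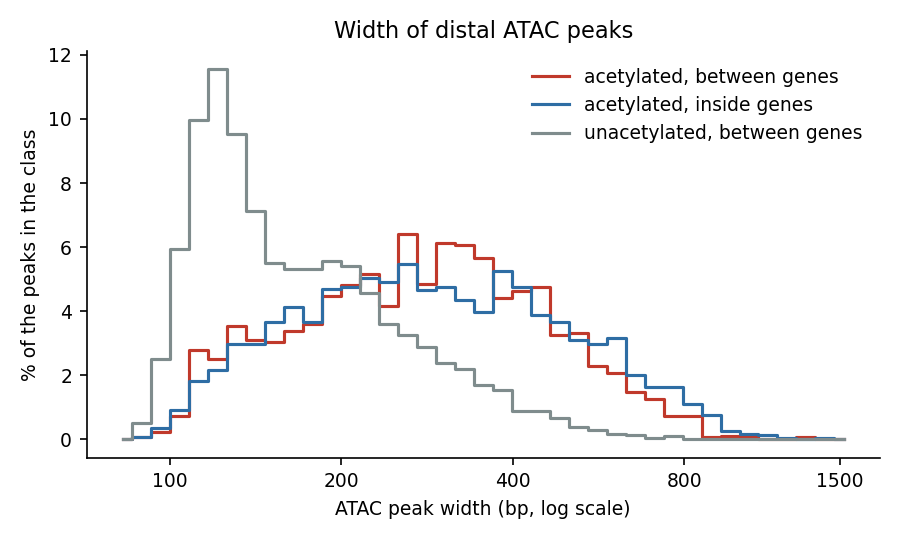
Width of ATAC peaks (x axis, bp, log scale) against the percentage of each class (y axis) for acetylated elements between genes, acetylated elements inside genes and unacetylated elements between genes. The unacetylated class peaks at the narrow end, with a median of 152 bp, and both acetylated classes are broad, with medians of 280.5 and 282 bp.

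Distance from genes differed little between elements and unacetylated regions. The median distance from an element to its nearest gene end was 18256 bp (quartiles 7051 and 42599), against 16740 bp for unacetylated regions. The facing gene end on the other side lay at a median of 68324.5 bp, against 64574.5 bp. The elements numbered 104 between 1 and 2 kb, 215 between 2 and 5 kb, 270 between 5 and 10 kb, 430 between 10 and 25 kb, 384 between 25 and 50 kb, and 345 between 50 and 100 kb. The acetylated share was 17.3, 16.3, 15.3, 15.1, 17.8 and 18.3% in these bands from near to far, and it had no steady direction with distance. Between 1 and 2 kb, 65 of the 104 elements shared their H3K27ac peak with the gene end itself, compared with 18 of 215 between 2 and 5 kb and 0 of 430 between 10 and 25 kb.

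**Figure D2:**
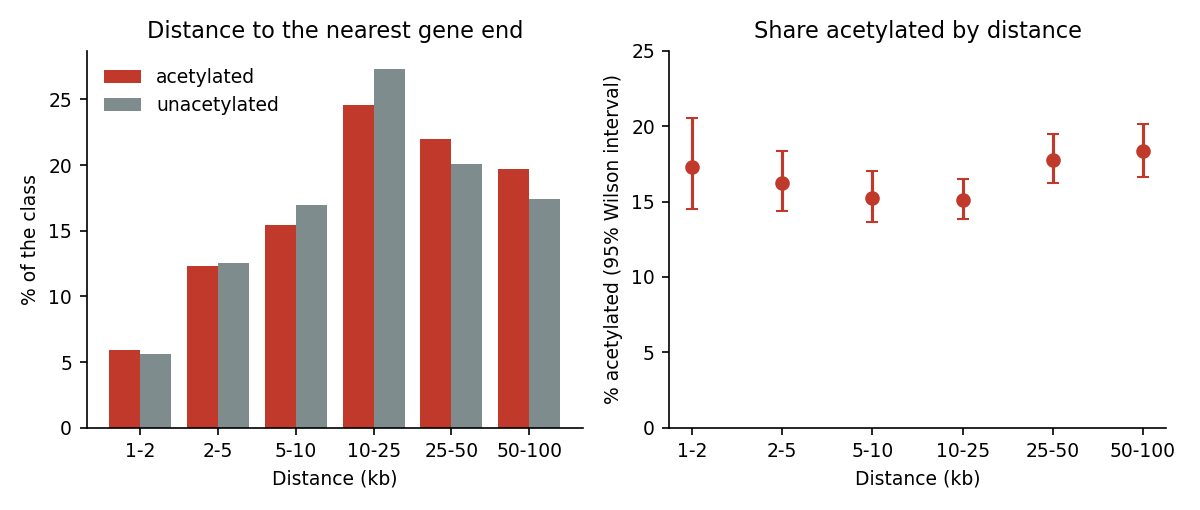
Left, percentage of acetylated and of unacetylated intergenic elements in each band of distance to the nearest gene end (kb). Right, percentage of open intergenic elements that were acetylated in each band, with 95% Wilson intervals; the shares lie between 15.1 and 18.3%.

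The gene end nearest to an element was more often acetylated than the end nearest to an unacetylated region. Over all annotated gene ends, 33.0% were open (an ATAC peak within 1 kb) and 26.5% acetylated (an H3K27ac peak within 1 kb). Of the elements, 39.2% (36.9 to 41.5%) had an open nearest end, against 36.6% of unacetylated regions, and the share was higher for elements on 13 of 20 chromosomes. An acetylated nearest end was found for 36.4% of elements, against 27.2% of unacetylated regions, higher on 16 of 20 chromosomes. Part of this came from a shared peak, since 86 elements (4.92%) had their own H3K27ac peak reach the gene end; another H3K27ac peak alone marked the end for 31.5% of elements. On the other side, the facing end was acetylated for 36.7% of elements and 31.3% of unacetylated regions. At both flanking ends together, 10.6% of elements and 7.38% of unacetylated regions had open and acetylated chromatin. No flanking end was both open and acetylated for 44.7% of elements, against 52.4% of unacetylated regions.

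In percentage points, the difference was larger at gene starts than over all ends. A strand was known for 79.9% of protein-coding genes, and with it the annotated start could be told from the far end. The nearest end was a start for 612 of 1330 elements (46.0%) and for 3465 of 6977 unacetylated regions (49.7%). When it was a start, it was acetylated for 69.6% of elements (65.9 to 73.1%), against 51.2% of unacetylated regions (49.6 to 52.9%), and open for 73.9%, against 66.4%. The acetylated share was higher for elements on 19 of 19 chromosomes with 10 or more elements nearest to a start. Chromosome 18, with 68 elements in all, did not reach 10 nearest to a start of known strand and is not among them. No strand was known for its genes Cxxc5, Psd2, Pou4f3 and Gfra3. The chromosome is also left out of the shares at lncRNA start windows below. Beyond 5 kb, where 0 of these acetylated starts was reached by the element's own H3K27ac peak, the shares were 67.6% of 512 elements and 53.9% of 2935 unacetylated regions. Counted once per gene over all distances, 69.2% of the 496 genes whose start was nearest to an element had an acetylated start. The share was 49.6% for the 2155 genes whose start was nearest to unacetylated regions only and 48.4% for all 17491 genes with a strand. The 69.2% includes starts reached by the element's own H3K27ac peak, which unacetylated regions lack by rule. Per element over all distances, another H3K27ac peak alone marked the start for 62.7%, against 51.2% of unacetylated regions. Far ends were acetylated for 8.64% of elements and 3.53% of unacetylated regions.

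**Figure D3:**
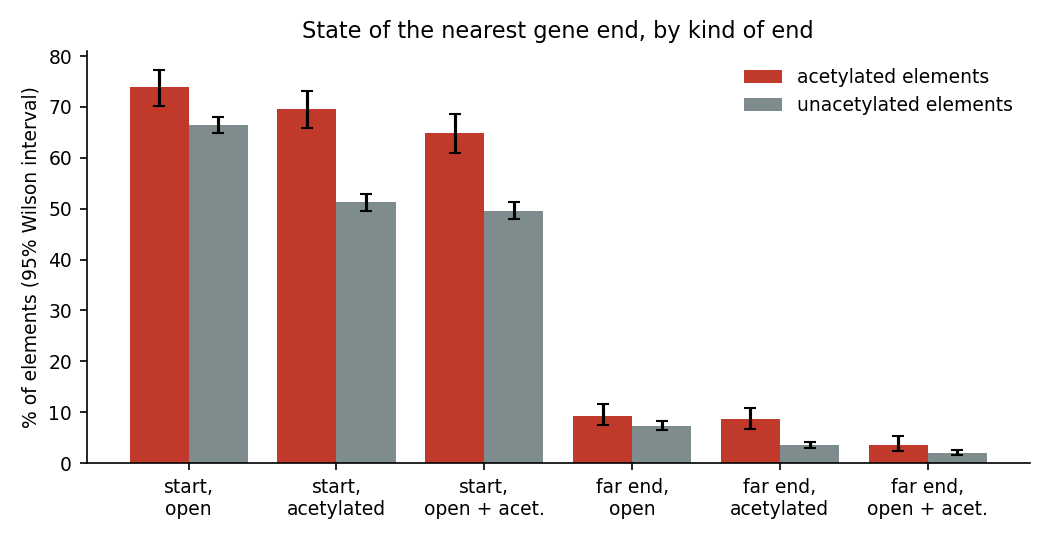
State of the nearest gene end (y axis, percentage of elements with 95% Wilson intervals) when it was an annotated start or a far end, for acetylated and unacetylated elements. Starts beside acetylated elements were acetylated in 69.6%, against 51.2% beside unacetylated ones, and far ends in 8.64%, against 3.53%.

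Counted over all gaps, facing far ends flanked elements more often than unacetylated regions. Where both flanking genes had a strand, 52.1% of elements lay between genes in tandem, 24.9% between facing starts and 23.0% (20.6 to 25.5%) between facing far ends, against 54.3, 27 and 18.7% (17.7 to 19.7%) of unacetylated regions. The gap between Cstad and 1700001O22Rik, described below, lies between facing far ends. It alone held 18 elements and 2 unacetylated regions, and the shares without it were not computed. In tandem gaps the start was the nearer end for 42.6% of elements and 42.8% of unacetylated regions.

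Some elements stood in clusters. With gaps of up to 10 kb, 622 elements (35.6%, 33.4 to 37.9%) fell into 271 clusters of 2 or more, the largest with 7. Of the 8830 unacetylated regions, clustered among themselves, 34.3% fell into clusters, the largest with 45; the classes differ in number and so in density, and these shares do not compare how strongly they gather. Between neighbouring genes, 1164 gaps held an element and 823 of these held 1. The 51 gaps with 4 or more held 269 elements (15.4%).

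The gap with most elements lay between Cstad and 1700001O22Rik on chromosome 2. Of its 21 ATAC peaks in 186617 bp, 18 were elements, and 18 H3K27ac peaks covered 19.8% of it. Cstad was the nearest end of 11 of them, from 4669 to 84381 bp away, and 7 of these formed a cluster at chr2:30642805-30660909. 1700001O22Rik was the nearest end of the other 7, and 5 of those formed a cluster at chr2:30708083-30726097. The annotated end of 1700001O22Rik that faces the gap was open and acetylated, and that of Cstad was neither. The hairpin Mir3089 and the start of the lncRNA Gm39783 lay in this gap within 5 kb of, or inside, an element.

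The gap between Syf2, a splicing factor gene, and Runx3, the transcription factor gene whose BAC drives the reporter, had few acetylated peaks among many. It held 39 ATAC peaks in 183107 bp, of which 10 were elements and 29 had no H3K27ac, and its 6 H3K27ac peaks covered 4.01%. Its density of 21.8 ATAC peaks per 100 kb ranked 2 among 3303 gaps of 50 kb or more with an ATAC peak, whose median was 1.57. Runx3 was the nearest gene of 6 elements, from 39637 to 87899 bp before its annotated start, and 7 elements nearest to Runx3 or Syf2 formed a cluster at chr4:135025503-135045422. The elements of Runx3 were 187, 215, 401, 537, 413 and 507 bp wide. The annotated start of Runx3 had an ATAC peak within 1 kb but no H3K27ac peak, and 12 ATAC and 3 H3K27ac peaks lay inside the gene. Extra copies of this region on the BAC would add reads at the same positions, and their part in the number of peaks was not tested. Ntrk3 was the nearest gene of 0 elements and 5 unacetylated regions.

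Elavl4, which encodes the neuronal RNA-binding protein HuD, had 6 elements, from 50970 to 82571 bp beyond its far end in the gap to Dmrta2. An H3K27ac peak of 7648 bp (chr4:110124616-110132263) held 3 of them, and 5 of the 6 formed a cluster at chr4:110120940-110134349. The far end itself was neither open nor acetylated, whereas the start of Elavl4 was both. Between Nrf1, a transcription factor gene of mitochondrial biogenesis, and Ube2h, 5 elements stood in 57830 bp. The 3 H3K27ac peaks of the gap covered 23.8% of it. The widest, of 10441 bp at chr6:30166237-30176677, held Mir96, Mir183, the Mirc35hg start shown above and 3 elements of 278, 627 and 342 bp.

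**Figure D4:**
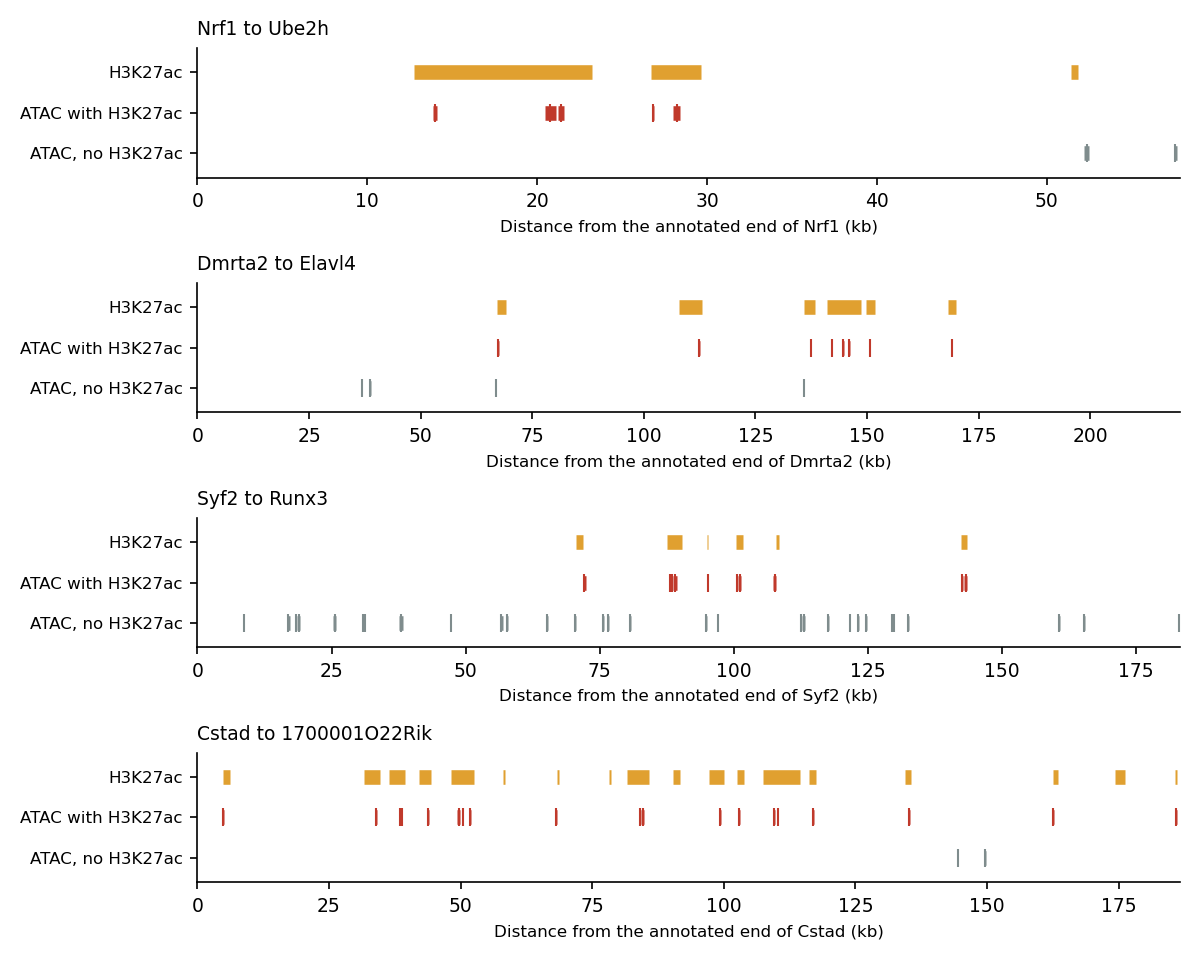
Maps of 4 gaps between protein-coding genes, with the distance in kb from the annotated end of the left gene (x axis) and 3 rows for H3K27ac peaks, ATAC peaks with H3K27ac and ATAC peaks without it. Nearly all ATAC peaks between Cstad and 1700001O22Rik carried H3K27ac (18 elements and 1 peak within 1 kb of a gene end), whereas 29 of 39 between Syf2 and Runx3 did not.

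Other broad acetylated stretches with elements lay at or beside regulators of development and genes of neurons. The broadest were 19239 bp at Hoxa9, 18266 bp at or beside Nr2f2, which encodes the nuclear receptor COUP-TFII, 15347 bp at Bahcc1 and 13364 bp at or beside the corepressor gene Tle3. These widths are of whole H3K27ac peaks, and each of these peaks held 1 element. The peak at Hoxa9 covered the gene, and that at Bahcc1 ran across its start into the gene. Next came 12966 bp at or beside Nrn1, which promotes neurite growth, and 12076 bp beside Nefm, the medium neurofilament chain. At or beside Nhlh1, a bHLH factor of newborn neurons, the stretch was 8526 bp wide.

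In all, 1248 of 21883 protein-coding genes (5.70%) were the nearest gene of at least 1 element: 927 had 1, 214 had 2, 66 had 3, 25 had 4, 7 had 5, 7 had 6, 1 had 7 and 1 had 11. After Cstad with 11 and 1700001O22Rik with 7, the genes with 6 were Bahcc1, Runx3, Cxxc5, Psd2, Irf2bp2, Map3k7 and Elavl4. Cxxc5 encodes a CXXC zinc finger protein, Irf2bp2 a transcriptional cofactor and Map3k7 the kinase TAK1. The elements of Bahcc1 lay on both sides, 3 before its start at 1116 to 25894 bp and 3 beyond its far end at 12612 to 23772 bp. Those of Map3k7 also lay on both sides, 2 before the start and 4 beyond the far end. The genes with 5 were Mef2c, Tex44, Nrf1, Kcnrg, Zcchc13, Zfp644 and Kif13b. Genes with an element had an open end in 74.9%, against 59.5% of all other genes, and an acetylated end in 67.9%, against 48.1%. These other genes include those with no open intergenic element. An acetylated end can also be the element's own H3K27ac peak, which reached the nearest end for 4.92% of elements. The acetylated share was 67.0% (63.9 to 69.9%) for genes with 1 element, 69.6% (64.0 to 74.7%) for those with 2 or 3, and 75.6% (60.7 to 86.2%) of 41 genes with 4 or more, with intervals that all overlap.

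Genes of 20 lists were then counted, each list beside the 5.70% of all genes that had an element and the 16.5% of open intergenic elements that were acetylated. Immediate early and stress response genes, which respond within minutes to stimulation, had the highest share: 23 of 32 (71.9%) had at least 1 element. Their 34 elements stood beside 35 unacetylated regions, so 49.3% of their open intergenic elements were acetylated (37.8 to 60.8%). Ier2 had 4 elements, at 1106 to 5346 bp, and Fos, an AP-1 subunit, had 3, at 1349, 8602 and 18263 bp. Btg2, Ier5, Atf3, Fosb, Egr3 and Ier3 had 2 each, and Egr1, Jun, Junb, Jund, Myc and Nr4a1 were among those with 1. These elements had a median distance of 10492 bp (1025 to 73164), against 18256 bp over all elements, and 17 of the 34 lay within 10 kb. Of all elements, 5.95, 12.3 and 15.4% lay at 1 to 2, 2 to 5 and 5 to 10 kb. Each of the 23 genes had an end that was open and an end that was acetylated. Of all genes with an element, 74.9% had an open and 67.9% an acetylated end. For 9 of the 34 (26.5%), against 4.92% of all elements, the H3K27ac peak of the element itself reached the gene end. Element and end then share 1 peak. The same held for 4 of 7 elements of axon guidance and adhesion genes and 3 of 7 of Hox genes. The tissue was dissociated enzymatically before it was fixed, and the part of that step in the early response elements was not tested.

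Transcription factors shared by sensory neurons came next by share of genes. Of 30, 11 (36.7%) had an element, with 22 elements and 37 unacetylated regions (37.3% acetylated, 26.1 to 50.05%). Pou4f2, a Brn3 factor, had 4 elements from 5451 to 12514 bp beyond its far end, 3 of them in an H3K27ac peak of 3370 bp, and all 4 ATAC peaks between Ttc29 and Pou4f2 were elements. Neurog1, a proneural factor that starts sensory neurogenesis, had 3, of which the widest was 689 bp. Sox4 had 3 within 4223 to 5819 bp of its start in 1 H3K27ac peak, and Ebf2 had 3, at 44114 to 44694 bp, in 1 H3K27ac peak of 708 bp. Pou4f3 and Klf7 had 2 each, and Pou4f1, Ebf3, Hmx1 and Neurod4 were among those with 1. H3K27ac covered only 1 bp of an element of Klf7, and only 15 of the 175 bp of Neurod4's element. Hmx1 also had 7 unacetylated regions.

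Among genes of sensory subtypes the counts were smaller. Of 20 proprioceptor genes, 4 had an element: Runx3 with 6, Pou4f3 with 2, and Etv1, a factor of proprioceptor identity, and Sema5a with 1 each. Etv1's element lay 1062 bp from its start, and the H3K27ac peak of that element reached the start. The 10 elements of this list became 5 with an upper limit of 50 kb or in the wider 50% of each list, and 17 by either flanking gene. Of 17 mechanoreceptor genes, 3 had an element, among them Meis1 and Meis2. Meis1, a Hox cofactor, had 4 within 2461 to 8492 bp on both of its sides and no unacetylated region. Meis2 had 1, and the H3K27ac peak of that element reached the gene end. Of 22 nociceptor and thermoreceptor genes, 2 had one, Gfra3, the artemin receptor, with 4 at 9866 to 18730 bp, and Scn10a with 1. Neurotrophin signalling genes had 1 of 25, Ngfr, the p75 receptor, whose element lay 33296 bp from its start, and 18 unacetylated regions.

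The elements of pan-neuronal genes lay far out. Of 30 such genes, 5 (16.7%, 7.34 to 33.6%) had one, with 14 elements and 14 unacetylated regions: Elavl4 with 6, the neurofilament genes Nefm and Nefl with 3 each, and Snap25 and Ncam1 with 1. All 14 lay more than 10 kb from the gene, at a median of 70948.5 bp (32057 to 84625). The number depends on the assignment: 4 elements remained with an upper limit of 50 kb and 5 in the wider 50% of each list, and 27 lay in a gap flanked by one of these genes. The elements of Nefl lay at 32057 to 42797 bp on the side of Dock5 and those of Nefm at 57738 to 84625 bp on the side of Adam7. Axon guidance and adhesion genes had an element in 5 of 33, with 3 at Nfasc, synaptic genes in 4 of 28 and ion channels in 2 of 28. Hox genes had one in 4 of 39, with 3 at Hoxc4 and 2 at Hoxd3. All 3 elements of Nfasc and the 2 of Hoxd3 lay in an H3K27ac peak that reached the gene end.

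Lists of other cell types gave a mixed picture. Motor neuron and ventral spinal cord genes had an element in 0 of 21, while 29 unacetylated regions had one of these genes as the nearest, so the acetylated share was 0% with an upper bound of 11.7%. Mesenchyme and muscle genes had an element in 0 of 22, with 28 unacetylated regions. Dorsal spinal interneuron genes had 2 elements, 1 of them at Lhx2, beside 63 unacetylated regions (3.08% acetylated, 0.848 to 10.5%). Endothelial and mural genes had 1 of 24 open intergenic elements acetylated. Glial, Schwann cell precursor and neural crest genes, by contrast, had an element in 6 of 22: Sox9, Ednrb, Sox5, Tfap2a, Sox2 and Ngfr with 1 each, beside 27 unacetylated regions (18.2%). Housekeeping genes had an element in 6 of 24 with 7 of 14 open elements acetylated, and cell cycle genes in 5 of 25. Epithelial genes had an element in 3 of 21 and blood and immune genes in 1 of 21. Some genes stand in more than 1 list, and lists differ in how many open regions lie at their genes.

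**Figure D5:**
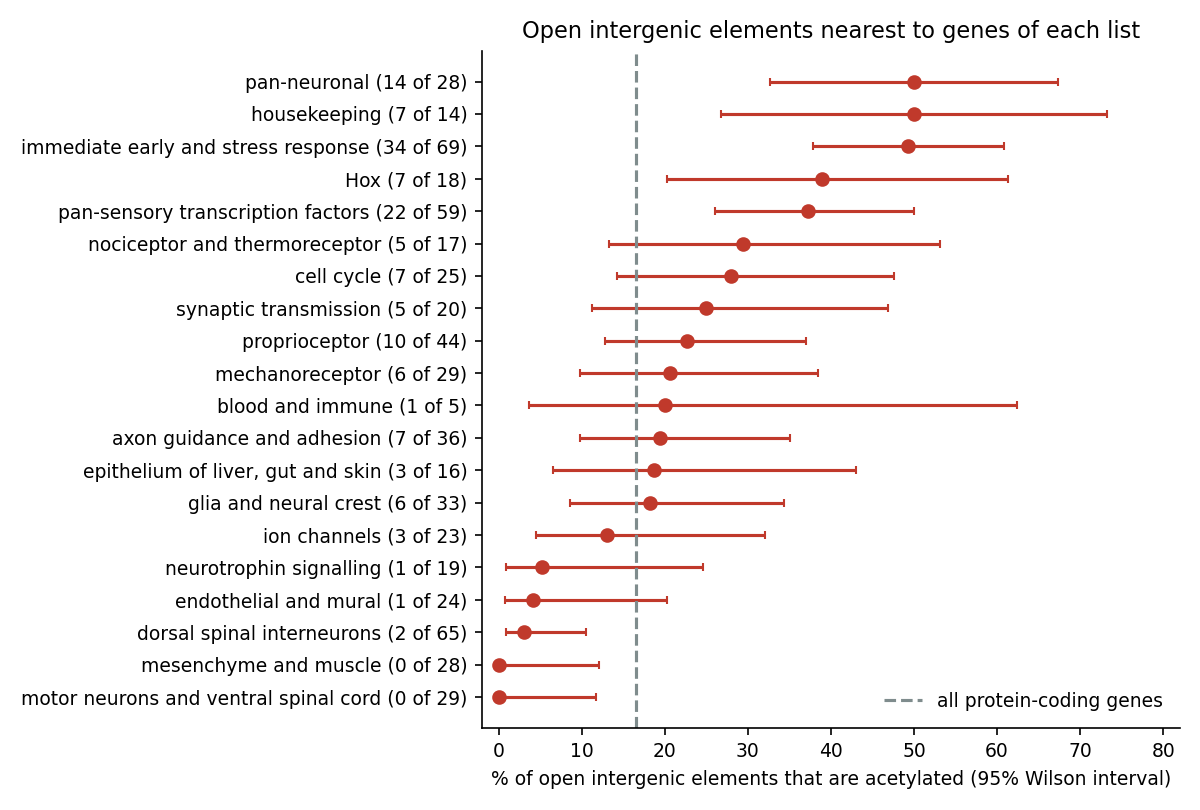
Percentage of open intergenic elements nearest to genes of each list that were acetylated (x axis) with 95% Wilson intervals, one list per row with its counts. The dashed line marks 16.5%, the share over all protein-coding genes; pan-neuronal, housekeeping and early response genes lie near 50%, and motor neuron and mesenchyme genes at 0%.

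Elements lay at lncRNA genes more often than unacetylated regions did. A lncRNA span was overlapped by 542 elements (31.0%, 28.9 to 33.2%), against 19.4% of unacetylated regions (18.6 to 20.3%). Without chromosome 18, the start window of a lncRNA was overlapped by 156 of 1680 elements (9.29%, 7.99 to 10.8%), against 218 of 8602 unacetylated regions (2.53%, 2.22 to 2.89%). Elements at a lncRNA start had a median width of 386 bp, against 199 bp for unacetylated regions at such a start. For all other regions the medians were 270.5 bp for 1592 elements and 151 bp for 8612 unacetylated regions. These include the regions of chromosome 18, which the shares at start windows leave out. Without all elements that overlap a lncRNA gene or its start window, 1196 elements at 917 genes remained, 14.5% of open intergenic elements were acetylated, and the median width was 269 bp. A start of a lncRNA is a promoter by annotation, so these elements need not be enhancers.

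Base composition and short words were compared in the lncRNA start windows. The 174 windows that held an element, of 163 lncRNA genes, had a median GC content of 57.7%, against 53.7% in 243 windows with an unacetylated region and 48.3% in all 11588 lncRNA windows. Their median ratio of observed to expected CpG was 0.661, against 0.395 and 0.245. Words were searched on both strands: RUNX as TGTGGT, E-box as CAGCTG or CAGATG, EBF as TCCCNNGGGA, AP-1 as TGANTCA, CRE as TGACGTCA, TAAT homeodomain as TAATTA, CTCF core as AGGNGGC and SOX as ACAATG. No word contains another, but matches to different words can overlap in a window.

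The CRE word stood in 9 of the 174 windows with an element (5.17%, 2.74 to 9.54%), against 2.06% of windows with an unacetylated region (0.882 to 4.73%), with overlapping intervals, 0.975% of all lncRNA windows and 1.79% of all 32851 start windows. Windows on opposite strands can share a word, and these 9 windows held 7 distinct CRE positions. The CTCF core word stood in 41.4% of windows with an element, against 38.3, 21.5 and 29.4%. The E-box word stood in 30.5% of windows with an element (24.1 to 37.7%), against 42.0% with an unacetylated region (35.9 to 48.3%), 35.5% of all lncRNA windows and 30.6% of all start windows, and the first pair of intervals overlapped. The RUNX word, with 19% against 20.2%, and the AP-1 word, with 8.05% against 9.05%, had overlapping intervals between windows with an element and windows with an unacetylated region, and 16.8% and 7.81% of all start windows held them. In windows with an element and in those with an unacetylated region, the shares were 13.2 and 9.05% for SOX, 2.87 and 6.17% for TAAT, and 2.3 and 0.823% for EBF, with overlapping intervals in each case, while 12.6, 5.29 and 0.904% of all start windows held them. Counting only the part of each window inside the ATAC peak, which is shorter by construction, gave 11.49% for RUNX, 6.9% for SOX, 23% for the E-box and 33.3% for the CTCF core in windows with an element. GC content and CpG moved with these classes, and their part in the word shares was not tested.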

How the data were processed

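Per the submitters' processing notes, reads were processed with cutadapt 1.18, Bowtie2 2.3.5.1, MACS2 and bedtools on mm10. The deposited files give, for each assay, 1 consensus list of peaks by start and end in bp, other measures such as counts or scores being absent. The consensus rule and thresholds are not given in the sources used here. BED starts were converted to positions counted from 1.

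Analyses used Python 3.11.15, numpy 2.4.6, pandas 2.3.3 and scipy 1.17.1, with figures drawn in matplotlib 3.10.9. Genes were 21883 RefSeq protein-coding spans (GRCm38.p6); strand came from RefSeq's start windows. Distance runs from the peak's edge to the nearest annotated end, and an end was open or acetylated with a peak within 1 kb. No genome was used, so composition and words were read only in RefSeq start windows, and the planned word search over all elements was not made. Interval code was tested on simulated positions against a direct search.

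The members and lists were chosen with earlier results of these data known. Genes named were the 20 with most elements, Runx3, Ntrk3, up to 4 per list and their neighbours on the other side. Elements named were the widest, those in the widest H3K27ac peaks, the largest clusters and those nearest to the limits. The lncRNAs, miRNAs and further list members named were chosen after their values were seen. Some items are not reported here.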

Additional observations from a re-analysis of the deposited data

How the results depend on the processing

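Windows, limits and coverage were varied, and distance from the ATAC midpoint, leaving out the Cstad gap and leaving out elements at lncRNA genes were added after seeing the data. The 1748 elements and 1248 genes stayed within 1.5 times under each change other than taking the wider 50% of each list, which gave 627 elements, 491 genes and 18.3% acetylated. The acetylated share was 14.4% with 50% of the ATAC peak covered and 14.5% without elements at lncRNA genes, where the median width was 269 bp.

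Gene end states depend on the window. With 0.5 kb, the nearest end was open, acetylated and both for 35.5, 33.4 and 28.7% of elements, and for 32.9, 25.5 and 23.4% of unacetylated regions. With 2.5 kb these were 53.6, 45.5 and 41.3% of elements, and 49.99, 30.2 and 28.8% of unacetylated regions. For the other side, 0.5 kb gave 38.5, 34.5 and 31.4% of elements and 37.8, 29.2 and 27.2% of unacetylated regions, and 2.5 kb gave 51.1, 40.6 and 38.3% of elements and 50.3, 34.1 and 32.8% of unacetylated regions. Beyond 5 kb, the median width was 278 bp for elements and 156 bp for unacetylated regions, and the nearest end was open, acetylated and both for 40.2, 35.2 and 31.8% of elements, and for 39.1, 29.5 and 28.1% of unacetylated regions. Elements had the higher share in each of these pairs. Beyond 5 kb, the intervals for an open nearest end overlapped (37.7 to 42.7% and 38.0 to 40.3%). By distance band, the open share was lower for elements at 10 to 25 kb (37.0 against 38.4%) and at 50 to 100 kb (40.9 against 42.5%). It was higher for elements in the other bands. The cause of the shifts was not tested. Clustering gave 30.5% of elements with gaps of 5 kb and 42.3% with 20 kb. List counts are small and moved: early response genes had 18 elements and pan-sensory factors 11 in the wider 50% of each list, and by either flanking gene glial and neural crest genes had 13, housekeeping genes 17, dorsal interneuron genes 8 and mesenchyme genes 1.

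No paired analysis was possible because each assay is deposited as 1 consensus list over its replicates. Leaving out a replicate was not run, no spread or depth is known, and absence of a peak is not absence of open or acetylated chromatin.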
